A study of Mus musculus with 8 samples.

Results

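The genes of complement and coagulation, the 2 protease cascades of blood plasma, were followed in whole liver of mice given repeated endotoxin. The genes were picked by name, with no threshold on a measured value. A total of 44 names were looked up in the deposited table and fell on 43 separate features, because C2 and Cfb share 1 set of values. All 43 reached the level needed for testing, out of 11463 tested features and 17294 with any value above 0. They were divided by role into C1q (3 genes), receptors and complement genes made mainly outside hepatocytes (5), complement recognition and activation proteins of hepatocytes (9 names, 8 features), fluid-phase inhibitors (2), terminal components (6), fibrinogen (3), clotting zymogens and cofactors (6), the contact system (4), anticoagulant and fibrinolytic proteins (4), and a cell-surface initiator and regulator of clotting (2).

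Complement is started by recognition proteins, such as C1q and the mannose-binding lectins, which activate proteases that cleave C3 and, further on, assemble the membrane attack complex. Coagulation is started by tissue factor or by the contact system and ends when thrombin turns fibrinogen into fibrin, which plasmin dissolves. Hepatocytes make most of the plasma proteins of both cascades, whereas C1q is made mainly by macrophages, in the liver by Kupffer cells. Fibrinogen and several complement proteins are textbook acute phase proteins, raised by interleukin 6 signalling in hepatocytes.

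The study compared 4 groups of 2 male C57Bl/6J mice. They were wild type without treatment, wild type injected every day with lipopolysaccharide (LPS, the endotoxin of Gram-negative bacteria) at 1.5 mg/kg for 7 days, and mice carrying the ApoE-Cyp7a1 transgene, described as liver specific, with and without the same injections. Cyp7a1 encodes cholesterol hydroxylase, which sets the pace of bile acid production. For age, and for any mock injection of the untreated groups, the sources used here give nothing. The authors described the libraries as biological replicates, and p-values measure the spread between these samples. Values are FPKM, fragments scaled to transcript length and to the mapped fragments of the library, so levels of different genes can be compared per length. Differences are on the log2(FPKM + 1) scale, and "rose" and "fell" are used for a limma adjusted p under 0.05 over all tested features.

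The FPKM of all genes summed to between 500765 and 580051 in the untreated libraries and to between 406668 and 469644 with LPS. Hepatocyte markers were abundant, with Apoa1 at 5071 to 14330 FPKM and Trf at 3143 to 8672 FPKM, but the row of Alb, the albumin gene, was listed at 0 in all 8 libraries and was not read as absence. The Cyp7a1 row lay at 64.7 to 78.5 FPKM in the 4 transgenic libraries and at 19.9 to 49.1 FPKM in the 4 wild-type libraries. Pancreas markers (Cela2a, Pnlip, Prss2, Cpa1 and Ctrb1) stood apart in single libraries. Their summed level was 983 and 3646 FPKM in replicate 1 of the untreated wild-type and transgenic groups, 49.1 and 736 FPKM in the replicates numbered 2, and 2.15 to 127 FPKM with LPS, and all 5 fell with LPS in transgenic mice while none was called in wild type by limma or had an unadjusted p under 0.05 there. The part of this difference in the results below was not tested, beyond leaving out both untreated libraries numbered 1, an alternative chosen after seeing the data.

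In wild-type liver 7 of the 43 features rose with LPS and 3 fell. The background over all tested features was 16.2% higher and 5.41% lower. The genes that rose were C1qa, C1qb, C1qc, Cfp, C3ar1, C5ar1 and the row of Cd55, and those that fell were Mbl1, Mbl2 and Fgg. In transgenic liver 8 rose and 5 fell, against a background of 16.0% higher and 10.5% lower. The same 7 genes rose there together with Pros1, and Mbl1, Masp2, C8g, Klkb1 and F3 fell. Of the features called in wild type and in transgenic mice, 8 were shared, 7 higher and Mbl1 lower. The called share of the 43 features was 23.3% in wild type and 30.2% in transgenic mice, and the median difference of all 43 was -0.08 and -0.12, beside -0.05 and -0.04 over all tested features. Among the calls over all tested features 75.0% were higher in wild type and 60.4% in transgenic mice, and with quantile normalization these shares were 59.5% and 53.8%. With that scaling the medians of the 43 features were 0.08 and 0.06, so their sign rests on the scaling. In each genotype the LPS libraries lay above the untreated ones without overlap for 11 features and below for 18, and overlapped for 14. The share over all tested features was not computed, so these counts are not a result about the set or its direction. Statements below that libraries did or did not overlap therefore describe single genes and carry no test.

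**Figure D1:**
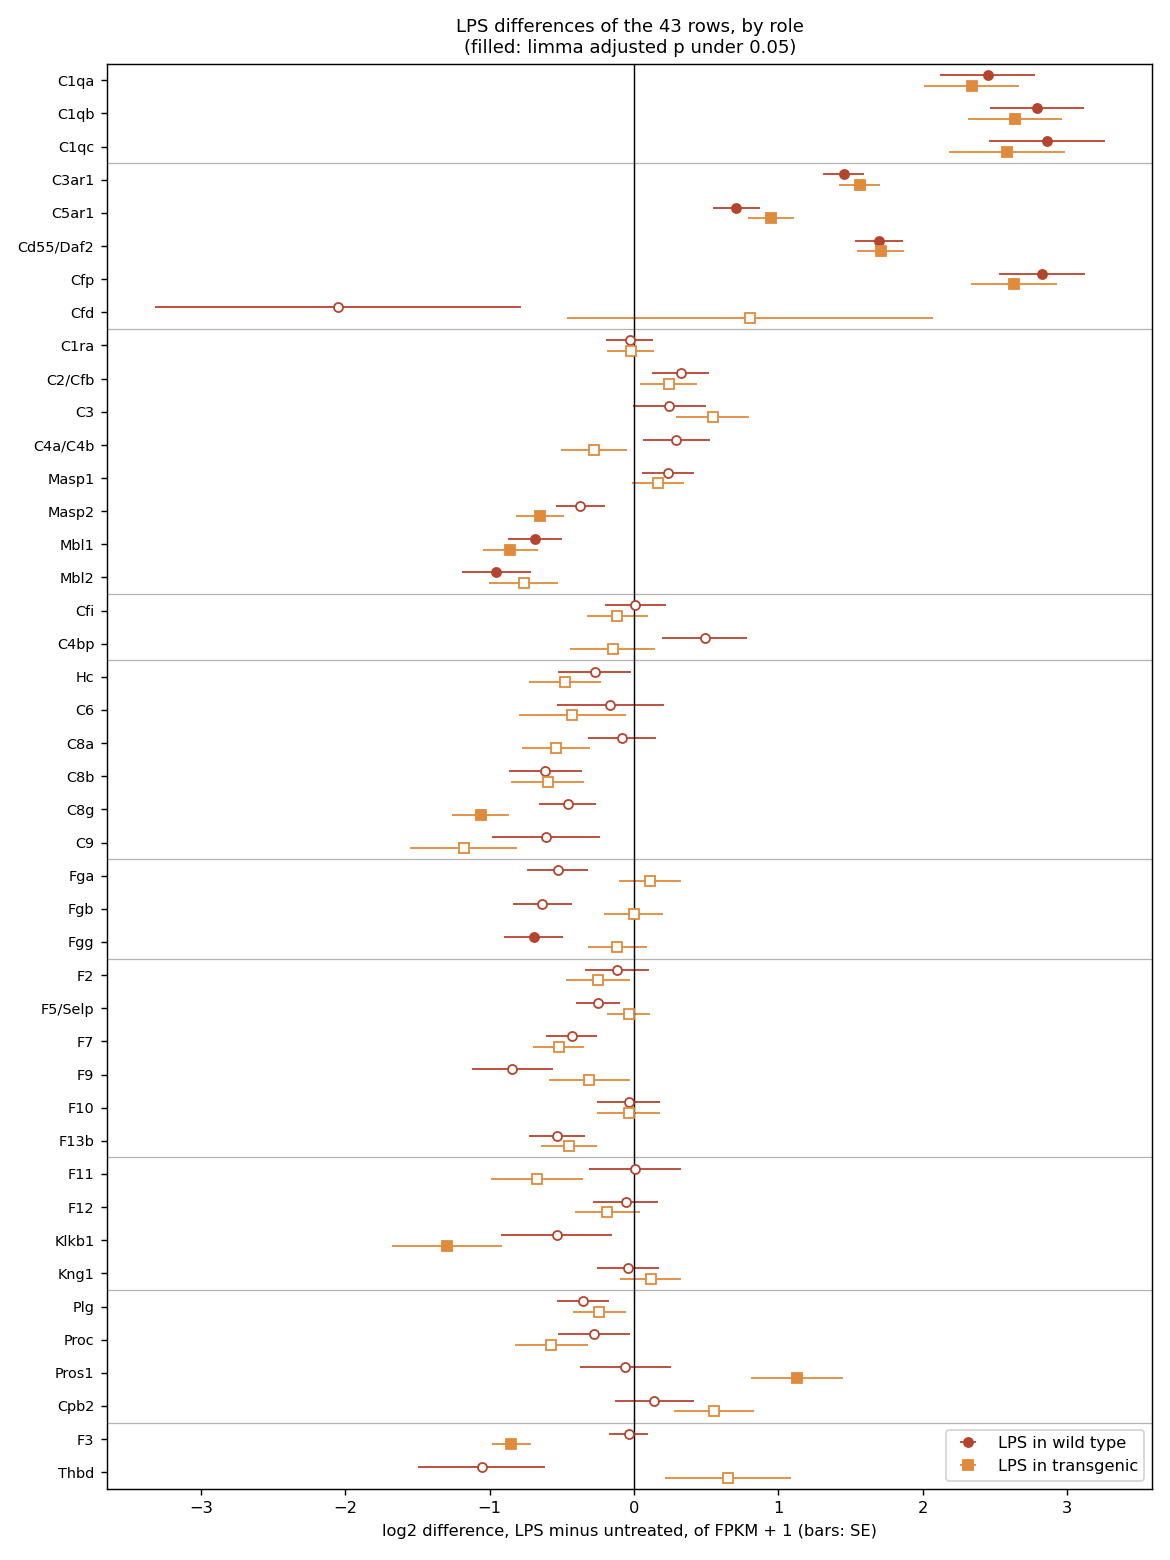
Log2 difference of FPKM + 1 between LPS-treated and untreated liver (x axis, bars are SE) for each of the 43 features, grouped by role from top to bottom, with circles for wild type and squares for transgenic mice. Filled symbols mark a limma adjusted p under 0.05. The C1q genes and Cfp stand between 2.34 and 2.86 in both genotypes, while the features made mainly by hepatocytes lie between -1.30 and 1.13, and under quantile normalization the medians of several of these groups change sign.

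C1q, the recognition molecule of the classical pathway, is built from the products of C1qa, C1qb and C1qc. The 3 genes lie side by side on the reverse strand of chromosome 4 (mm10), C1qb at 136880129 to 136886187, C1qc at 136889804 to 136893065 and C1qa at 136895917 to 136898803. The 250 bases before the RefSeq start of C1qb and C1qc are shown because the genes of this cluster moved together and had some of the largest rises of the set. Capitals mark GAGGAA or its reverse complement, the letters of a core motif of the myeloid factor PU.1, a motif picked after the values were seen.
C1qb, chr4:136886201-136886450, reverse strand: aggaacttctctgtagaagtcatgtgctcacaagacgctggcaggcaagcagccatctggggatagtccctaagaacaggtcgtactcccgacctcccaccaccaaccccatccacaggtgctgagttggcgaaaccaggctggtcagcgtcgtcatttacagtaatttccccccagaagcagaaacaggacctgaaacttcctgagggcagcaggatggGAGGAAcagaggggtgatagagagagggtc
C1qc, chr4:136892915-136893164, reverse strand: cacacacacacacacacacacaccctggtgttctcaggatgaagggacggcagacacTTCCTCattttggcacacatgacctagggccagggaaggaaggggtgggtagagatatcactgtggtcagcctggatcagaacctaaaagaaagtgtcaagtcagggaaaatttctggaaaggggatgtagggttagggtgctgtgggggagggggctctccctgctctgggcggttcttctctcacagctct
These letters occur on either strand in 28.3% of 32851 RefSeq promoter windows of 300 bases (GRCm38.p6, 250 bases before to 50 after the start), so a match describes the sequence and shows no binding. In C1qb the match starts 30 bases before the start, and in C1qc 193 bases before it. Distances are from the RefSeq start. On the reverse strand the GENCODE position of C1qc begins at 136893065, inside its printed stretch.

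In untreated wild-type liver C1qa was measured at 38.5 and 18.6 FPKM, and with LPS at 146 and 155 FPKM. In transgenic liver it was measured at 36.9 and 24.0 FPKM without treatment and at 157 and 153 FPKM with LPS. The 4 LPS libraries were all far above the 4 untreated ones, and the genotypes overlapped. The group means were 28.5 ± 14.1 and 151 ± 6.36 FPKM in wild type and 30.4 ± 9.11 and 155 ± 2.59 FPKM in transgenic liver (SD, n = 2). C1qa rose by 2.45 (SE 0.33, adjusted p = 0.00159) in wild type and by 2.34 (SE 0.33, adjusted p = 0.00233) in transgenic mice.

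C1qb stood at 38.8 and 20.9 FPKM in untreated and 204 and 202 FPKM in LPS-treated wild-type liver, and at 39.8 and 23.5 FPKM and 214 and 180 FPKM in transgenic liver. Its rise was 2.79 (SE 0.33, adjusted p = 0.000805) in wild type and 2.64 (SE 0.33, adjusted p = 0.00128) in transgenic mice. C1qc, at 43.9 and 18.2 FPKM against 222 and 203 FPKM in wild type and 42.8 and 24.2 FPKM against 209 and 188 FPKM in transgenic liver, rose by 2.86 (SE 0.40, adjusted p = 0.00193) and 2.58 (SE 0.40, adjusted p = 0.00353). In each untreated group replicate 1 was the higher library for all 3 genes, and all LPS libraries stood above all untreated ones. The 3 rises kept their call in each of 17 alternatives, and without a single library they ranged from 1.94 to 3.47 in wild type and from 2.04 to 3.01 in transgenic mice.

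The levels of the C1q genes were of similar size. C1qa over C1qb, as a ratio of FPKM, was 0.717 to 1.02, and C1qc over C1qb was 0.871 to 1.13, over the 8 libraries. Without treatment C1qa over C1qb was 0.888 to 1.02, and with LPS it was 0.717 to 0.851, with no overlap.

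**Figure D2:**
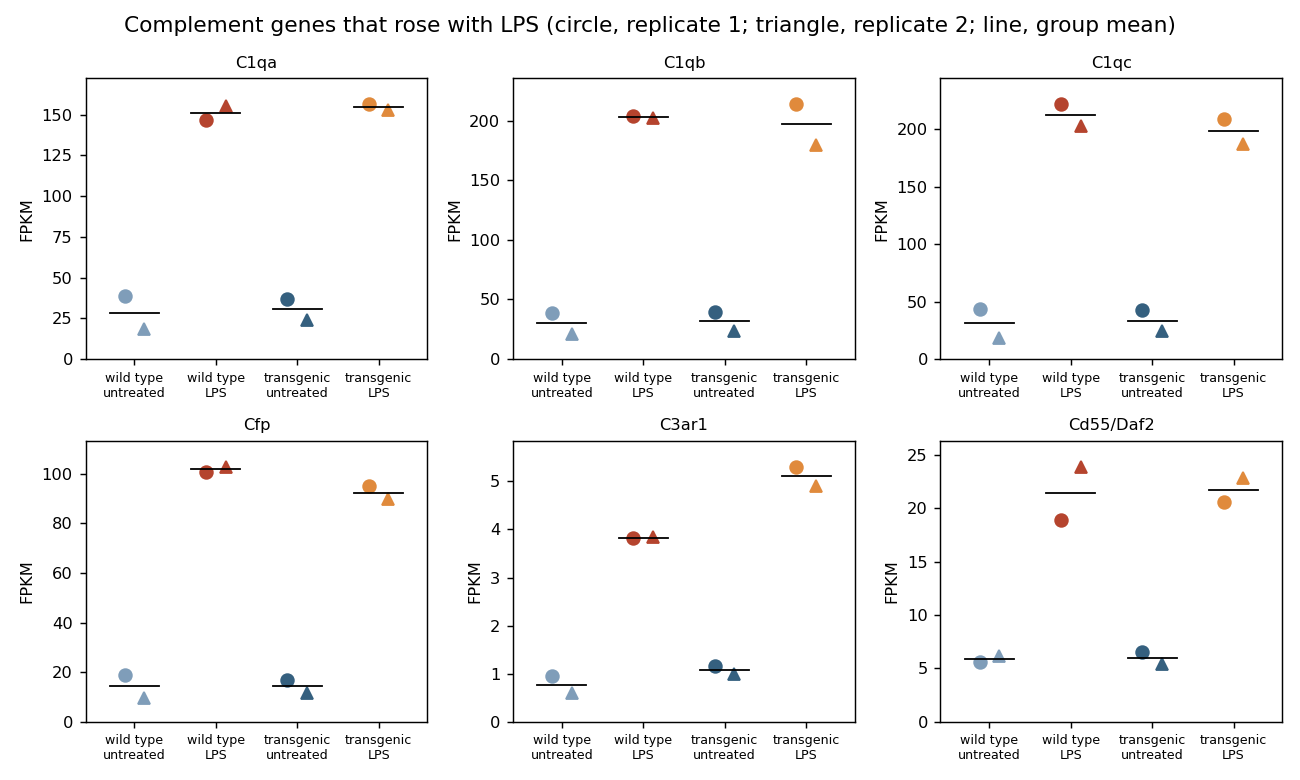
FPKM (y axis, from 0) of 6 complement genes that rose with LPS in both genotypes, with the 4 groups on the x axis, a circle for replicate 1, a triangle for replicate 2 and a line at the group mean. For all 6 genes the 4 LPS libraries lie above the 4 untreated libraries, as for C1qa at 146 to 157 FPKM against 18.6 to 38.5 FPKM.

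Most macrophage markers moved with C1q. Of 13 macrophage and Kupffer cell markers 11 rose in each genotype, and their summed level was 193 to 300 FPKM in untreated wild type, 1747 to 1763 FPKM in wild type with LPS, 213 to 293 FPKM in untreated transgenic and 1533 to 1582 FPKM in transgenic liver with LPS, led by Lyz1/Lyz2 and Cd5l, with none at 0 in all libraries. In bulk tissue, more cells of a type and more RNA per cell cannot be told apart. The C1q sum was set beside single markers, to which the same applies, so the ratios do not separate these. Over Csf1r, the receptor of macrophage colony-stimulating factor, the C1q sum was 7.63 and 7.33 in untreated wild type, 4.59 and 4.61 in wild type with LPS, 7.41 and 6.43 in untreated transgenic and 5.26 and 4.51 in transgenic liver with LPS. Over Emr1, which encodes F4/80, it was 17.0 to 20.0 without treatment and 4.84 to 6.34 with LPS. Both ratios were lower in every LPS library than in every untreated one, and Csf1r and Emr1 themselves rose by 3.34 and 4.28 in wild type and by 2.98 and 4.00 in transgenic mice. Over Clec4f, a lectin of resident Kupffer cells, the ratio went the other way, from 2.38 to 2.93 without treatment to 9.42 to 19.4 with LPS. Over Cd68, whose row is shared with the neighbouring gene Eif4a1, it was 2.205 to 5.11 and 11.5 to 14.8. Clec4f itself was measured at 24.2 to 42.3 FPKM in untreated and 29.6 to 55.2 FPKM in LPS-treated liver and was not called in either genotype. It differed in this from other Kupffer cell markers of the same list, since Cd5l rose by 3.72 and 3.11, Timd4 by 2.97 and 2.96 and Marco by 6.30 and 5.81. The ratios were computed after the values of these genes were known and carry no test. Ly6c2, the other marker of the list that was not called, differed by -0.63 in wild type and -0.27 in transgenic mice. In wild type it was measured at 80.9 and 69.4 FPKM without treatment and at 48.1 and 47.7 FPKM with LPS.

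**Figure D3:**
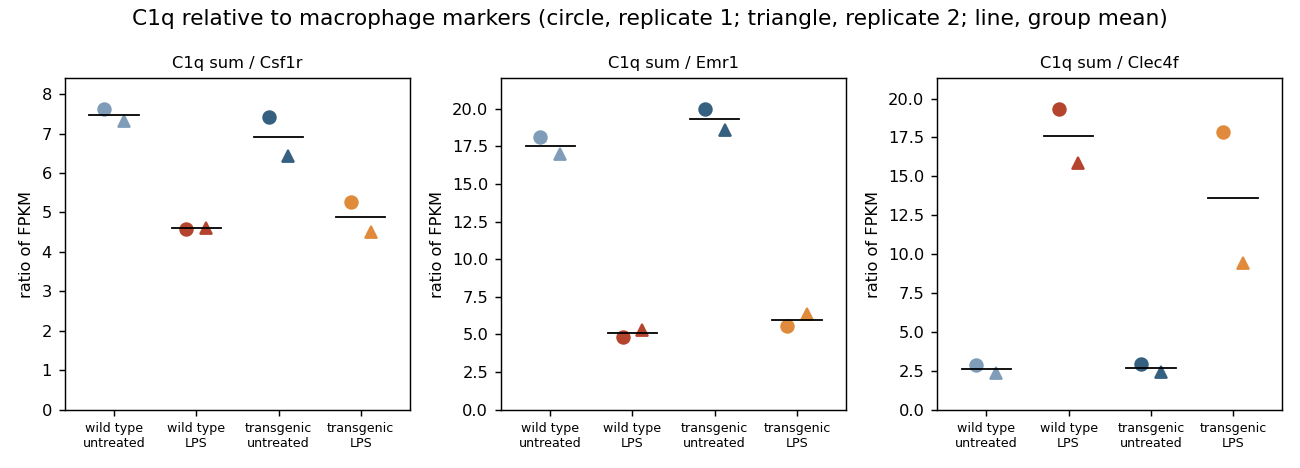
Summed FPKM of C1qa, C1qb and C1qc divided by the FPKM of Csf1r, Emr1 or Clec4f (y axes, ratios from 0) in the 8 libraries by group, with circles for replicate 1, triangles for replicate 2 and a line at the group mean. The ratio to Emr1 was 17.0 to 20.0 without treatment and 4.84 to 6.34 with LPS, whereas the ratio to Clec4f was 2.38 to 2.93 and 9.42 to 19.4.

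Properdin, the stabiliser of the alternative pathway convertase, is encoded by Cfp on chromosome X (20925454 to 20931555) and is made by white blood cells. Cfp was measured at 19.0 and 9.50 FPKM in untreated and 101 and 103 FPKM in LPS-treated wild-type liver, and at 16.7 and 11.8 FPKM and 95.0 and 89.7 FPKM in transgenic liver. LPS libraries stood above untreated libraries with no overlap. The rise was 2.83 (SE 0.30, adjusted p = 0.000516) in wild type and 2.63 (SE 0.30, adjusted p = 0.000867) in transgenic mice, close in size to that of C1q.

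The anaphylatoxin receptors, which draw in and activate white blood cells, were low. C3ar1, the receptor of the C3 fragment, was measured at 0.946 and 0.602 FPKM in untreated and 3.82 and 3.84 FPKM in LPS-treated wild-type liver, and at 1.15 and 0.984 FPKM and 5.31 and 4.91 FPKM in transgenic liver. It rose by 1.45 (SE 0.14, adjusted p = 0.000393) and by 1.56 (SE 0.14, adjusted p = 0.00044). C5ar1, the receptor of the C5 fragment, was measured at 0.835 and 0.821 FPKM and 2.16 and 1.83 FPKM in wild type, and at 1.33 and 1.05 FPKM and 3.78 and 2.73 FPKM in transgenic liver. Its rise of 0.71 (SE 0.16, adjusted p = 0.0177) in wild type lost its call in 5 of 16 alternatives, namely with quantile normalization, without both untreated libraries numbered 1, and on leaving out untreated wild-type replicate 2, LPS-treated wild-type replicate 1 or LPS-treated wild-type replicate 2 (adjusted p up to 0.200). In transgenic mice the rise was 0.95 (SE 0.16, adjusted p = 0.00514). The log2(FPKM + 1) scale understates changes at such levels. All 7 neutrophil markers rose in both genotypes too, from a sum of 3.88 to 8.67 FPKM without treatment to 179 to 356 FPKM with LPS, led by S100a8 and S100a9, and their part in the receptor values was not tested.

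Decay-accelerating factor, a membrane protein that protects cells from their own complement, is encoded by Cd55, whose row holds the same values as that of Daf2, a name of its neighbouring copy Cd55b on chromosome 1, so the copies cannot be told apart here. The shared row stood at 5.58 and 6.15 FPKM in untreated and 18.9 and 23.9 FPKM in LPS-treated wild-type liver, and at 6.53 and 5.40 FPKM and 20.6 and 22.8 FPKM in transgenic liver. The groups did not overlap, and the rise was 1.70 (SE 0.17, adjusted p = 0.000384) in wild type and 1.71 (SE 0.17, adjusted p = 0.000527) in transgenic mice. Of 8 endothelial markers 6 rose as well in each genotype, from a summed level of 94.5 to 112 FPKM without treatment to 226 to 249 FPKM with LPS. Of the most abundant among them Lyve1 rose by 1.80 and 2.46 and Clec4g differed by 0.06 and 0.02. Their part in the Cd55 values was not tested.

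Cfd encodes factor D, also called adipsin, the alternative pathway protease secreted by fat cells. It had the largest SE of the 43 features and was measured at 24.7 and 1.22 FPKM in untreated wild type, 0.794 and 0.848 FPKM in wild type with LPS, 6.67 and 0.250 FPKM in untreated transgenic, and 1.50 and 10.7 FPKM in transgenic liver with LPS. The differences of -2.05 (SE 1.27, adjusted p = 0.285) and 0.80 (SE 1.27, adjusted p = 0.68) were not called. The 3 libraries with the most Cfd, replicate 1 of each untreated group and replicate 2 of transgenic with LPS, were also the 3 highest for the fat cell genes Adipoq (4.83, 1.35 and 2.57 FPKM, at most 0.417 elsewhere), Plin1 and Retn. Lep, another fat cell gene, was 0 in 7 of 8 libraries. The summed level of the 6 fat cell markers was 51.2 to 104 FPKM without treatment and 97.8 to 159 FPKM with LPS, with Fabp4 and Cidec as the most abundant. These did not follow the order of Cfd: Fabp4 was highest in the LPS libraries of transgenic mice (108 and 136 FPKM) and Cidec in replicate 1 of transgenic with LPS (47.7 FPKM). Cidec fell in wild type and Fabp4 rose in transgenic mice. The part of fat cell RNA in the Cfd values was not tested.

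**Figure D4:**
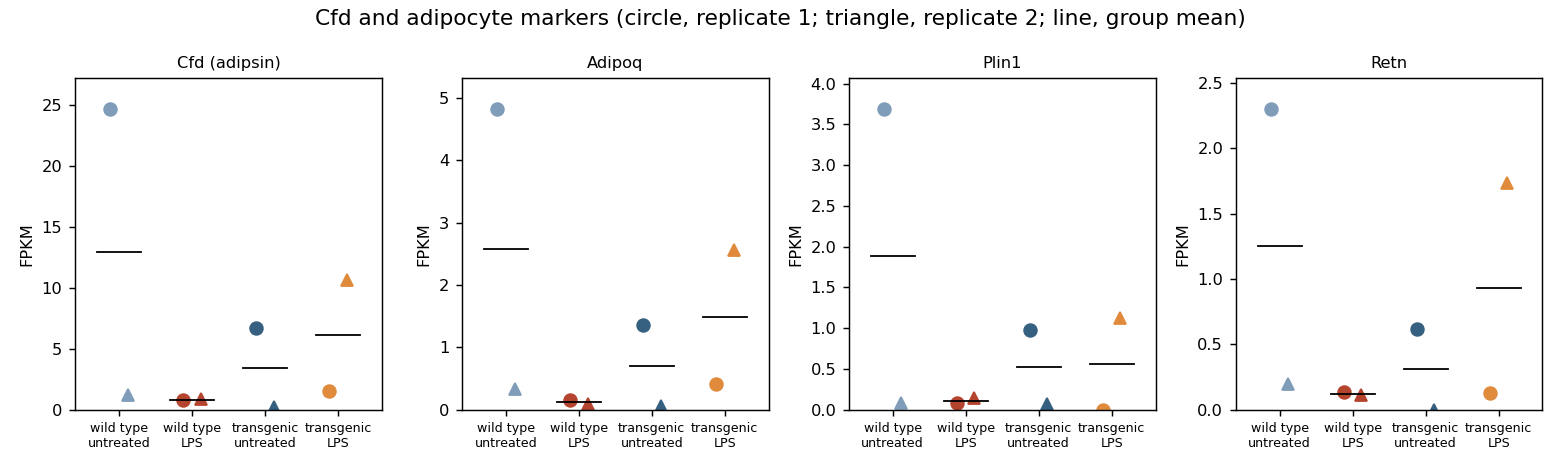
FPKM (y axes, from 0) of Cfd, which encodes adipsin, and of the fat cell genes Adipoq, Plin1 and Retn by group, with circles for replicate 1, triangles for replicate 2 and a line at the group mean. The same 3 libraries are highest in every panel, with Cfd at 24.7, 6.67 and 10.7 FPKM there and at most 1.50 FPKM in the other 5.

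The complement genes of hepatocytes made up 16 features, of which none rose and 2 fell in wild type and none rose and 3 fell in transgenic mice. The called share, all lower, was 12.5% and 18.8%. Over all tested features 16.2% were higher and 5.41% lower in wild type, and 16.0% and 10.5% in transgenic mice. The median difference of the 16 was -0.12 in wild type and -0.45 in transgenic mice. With quantile normalization it was 0.13 and -0.11, so that the wild-type median changed sign. As a share of all FPKM, their sum was 0.719% and 0.731% in untreated wild type and 0.843% and 0.910% with LPS. In transgenic liver it was 0.774% and 0.734% without treatment and 0.818% and 0.993% with LPS. Their sum thus took a higher share in every LPS library than in every untreated one, beside a lower FPKM total with LPS. The sum leans on C3, which made up 1649 of 3327 FPKM in replicate 1 of transgenic with LPS. Shares without C3 were not computed. Gene by gene, 10 of the 16 had lower fitted levels with LPS in wild type and 13 in transgenic mice. C3, the central component, was the most abundant of them at 1636 and 1219 FPKM in untreated and 1561 and 1789 FPKM in LPS-treated wild-type liver, and at 1475 and 1200.0 FPKM and 1649 and 2284 FPKM in transgenic liver. Its differences of 0.24 (SE 0.25, adjusted p = 0.528) and 0.54 (SE 0.25, adjusted p = 0.153) were not called, and the wild-type groups overlapped. With 2 libraries a group a missing call does not show that C3 stayed the same. None of the 16 had an unadjusted p under 0.05 in the higher direction.

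The mannose-binding lectins, recognition proteins for microbial sugars, were among the hepatocyte genes with lower levels after LPS in both genotypes. Mbl1 (chromosome 14, 41151458 to 41159601) was measured at 152 and 133 FPKM in untreated and 89.1 and 87.2 FPKM in LPS-treated wild-type liver, and at 142 and 132 FPKM and 63.7 and 88.4 FPKM in transgenic liver. All 4 LPS libraries lay below all 4 untreated ones. It fell by 0.69 on the log2 scale (SE 0.19, adjusted p = 0.0383) in wild type and by 0.86 (SE 0.19, adjusted p = 0.0151) in transgenic mice, and it lost these calls in 8 and 4 of 17 alternatives. In wild type the call ended on leaving out any 1 library other than those of transgenic mice with LPS (adjusted p up to 0.194), and in transgenic mice on leaving out either untreated transgenic library or replicate 1 of transgenic with LPS (adjusted p up to 0.0957). Over these fits the difference itself stayed between -0.78 and -0.59 in wild type and between -1.09 and -0.62 in transgenic mice. It does not move when a library of the other genotype is left out, since only the estimate of the spread then changes.

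Mbl2 (chromosome 19, 30232942 to 30239687) was measured at 212 and 141 FPKM and 78.2 and 101 FPKM in wild type, and at 163 and 146 FPKM and 81.5 and 101 FPKM in transgenic liver. It fell by 0.96 on the log2 scale (SE 0.24, adjusted p = 0.0268) in wild type, while the transgenic difference of -0.76 (SE 0.24, adjusted p = 0.0513) narrowly missed the threshold. The groups did not overlap in either genotype. The wild-type call was lost in 7 of 17 alternatives, among them on leaving out replicate 1 of untreated wild type, either wild-type library with LPS or either untreated transgenic library (adjusted p up to 0.201), while the difference stayed between -1.25 and -0.66 over the libraries left out. In transgenic mice Mbl2 passed as lower with robust moderation, in the fit of the compared groups alone and without either untreated wild-type library.

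Of the proteases that the lectins carry, Masp2 was called and Masp1 was not. Masp2 stood at 181 and 170 FPKM in untreated and 133 and 137 FPKM in LPS-treated wild-type liver, and at 158 and 175 FPKM and 94.0 and 118 FPKM in transgenic liver. It fell in transgenic mice by 0.65 on the log2 scale (SE 0.17, adjusted p = 0.0269), and differed by -0.37 in wild type (adjusted p = 0.156). The call was lost in 8 of 17 alternatives, among them on leaving out either wild-type library with LPS, either untreated transgenic library or replicate 1 of transgenic with LPS (adjusted p up to 0.181), and the difference ranged from -0.82 to -0.49 over the libraries left out. Masp1, at 37.6 to 51.8 FPKM over all libraries, differed by 0.24 and 0.17 and was not called. Whether the Masp1 and Masp2 differences are unlike was not tested.

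The other activation genes were not called. C1ra, a protease of the C1 complex, was measured at 46.6 to 61.6 FPKM in all libraries and differed by -0.03 and -0.02. C2 and Cfb, the neighbouring genes of the catalytic convertase subunits on chromosome 17, share 1 row at 347 to 449 FPKM without treatment and 447 to 524 FPKM with LPS, and it differed by 0.32 and 0.24 (adjusted p = 0.28 and 0.402). With quantile normalization the C2 and Cfb row was called higher in wild type. C4b shares its row with its near-identical copy C4a, at 84.3 to 140 FPKM, and differed by 0.29 and -0.28. Among the fluid-phase inhibitors, Cfi, the protease that inactivates C3 and C4 fragments, was measured at 187 to 272 FPKM and differed by 0.01 and -0.12. C4bp, its cofactor, was measured at 220 and 273 FPKM and 359 and 331 FPKM in wild type and at 231 and 209 FPKM and 143 and 274 FPKM in transgenic liver, and its differences of 0.49 and -0.15 were not called.

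The terminal components form the membrane attack complex. All 6 had lower fitted levels with LPS in both genotypes, with medians of -0.37 in wild type and -0.57 in transgenic mice. With quantile normalization the medians were -0.08 and -0.25, and in wild type 3 of the 6 were then above 0. C8g, which encodes the gamma chain of C8 (chromosome 2, 25498651 to 25501719), was the one that was called. It was measured at 285 and 216 FPKM in untreated and 181 and 179 FPKM in LPS-treated wild-type liver, and at 237 and 233 FPKM and 98.7 and 127 FPKM in transgenic liver. It fell by 1.06 on the log2 scale (SE 0.20, adjusted p = 0.00784) in transgenic mice and differed by -0.46 (adjusted p = 0.141) in wild type. The groups did not overlap in either genotype. Without either untreated transgenic library the transgenic call ended, with an adjusted p up to 0.0558, and over the libraries left out the difference ranged from -1.24 to -0.88.

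C9, the component that polymerises into the pore, was measured at 168 and 381 FPKM in untreated and 163 and 167 FPKM in LPS-treated wild-type liver, and at 225 and 271 FPKM and 88.5 and 132 FPKM in transgenic liver. Replicate 1 of untreated wild type lay level with the LPS libraries, and the differences of -0.61 (adjusted p = 0.278) and -1.18 (SE 0.37, adjusted p = 0.0518) were not called. Hc, which encodes C5, differed by -0.27 and -0.48, C6 by -0.16 and -0.43, C8a by -0.08 and -0.54 and C8b by -0.62 and -0.60. For Hc, C6, C8a and C8b as for C9, replicate 1 of untreated wild type was below replicate 2, as with C6 at 59.4 and 147 FPKM. Without that library Hc, C6, C8b and C9 passed as lower in wild type. In transgenic mice C9 passed as lower with robust moderation, with a replicate block, in the fit of the compared groups alone, without both untreated libraries numbered 1, without either untreated wild-type library and without replicate 2 of transgenic with LPS. Without the last of these C8a and C8b passed there too.

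Fibrinogen, the precursor of fibrin, is encoded by Fgg, Fga and Fgb, which lie within 1 stretch of chromosome 3 (mm10), Fgg at 83007724 to 83015049, Fga at 83026076 to 83033627 and, on the reverse strand, Fgb at 83040141 to 83049863. The 250 bases before each RefSeq start are shown because the 3 chains are made in step and Fgg was the member called. Capitals mark CTGGGA, the core letters of the interleukin 6 response element of acute phase genes.
Fga, chr3:83025903-83026152, forward strand: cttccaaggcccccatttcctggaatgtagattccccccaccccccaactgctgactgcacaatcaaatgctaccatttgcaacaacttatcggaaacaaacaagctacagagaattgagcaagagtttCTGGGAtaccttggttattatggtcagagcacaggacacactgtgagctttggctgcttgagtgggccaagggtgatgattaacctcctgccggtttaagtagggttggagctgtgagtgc
Fgb, chr3:83049864-83050113, reverse strand: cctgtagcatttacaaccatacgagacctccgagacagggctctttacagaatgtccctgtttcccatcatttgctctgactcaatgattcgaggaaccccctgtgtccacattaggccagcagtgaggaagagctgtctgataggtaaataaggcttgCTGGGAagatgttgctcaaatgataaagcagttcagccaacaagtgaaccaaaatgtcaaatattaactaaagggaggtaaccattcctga
Fgg, chr3:83007474-83007723, forward strand: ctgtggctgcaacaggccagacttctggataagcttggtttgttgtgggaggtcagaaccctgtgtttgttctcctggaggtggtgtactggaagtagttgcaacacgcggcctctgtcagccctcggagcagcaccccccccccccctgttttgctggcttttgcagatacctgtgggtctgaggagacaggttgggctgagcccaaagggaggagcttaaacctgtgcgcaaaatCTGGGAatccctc
Each printed stretch holds 1 match, which starts 121 bases before the start in Fga, 91 in Fgb and 13 in Fgg, and Fgb has another after its start that is not printed. On either strand 31.8% of the 32851 windows hold these letters. Distances are again from the RefSeq start, and the GENCODE position of Fga begins at 83026076, inside its printed stretch. TTCNNNGAA, the letters of a STAT site, was found in Fga and Fgb (8.3% of windows), GTTAAT, an HNF1 half-site, in Fga and Fgb (7.1%), TTNNGNAAT, a C/EBP motif, in Fgb (11.5%) and TGACCT, a nuclear receptor half-site, in Fgg and C1qc (16.3%). The CTGGGA letters were also in the C1qc window and GAGGAA in that of Fgb, where 1 GAGGAA match overlaps the STAT letters.

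Averaged over the 8 libraries, the fibrinogen transcripts were the most abundant of the 43 features, followed closely by C3. By group mean C3 was above Fga and Fgg with LPS in both genotypes. In replicate 1 of transgenic with LPS, however, Fga was above C3 (1705 and 1649 FPKM). Fga was measured at 2026 and 1749 FPKM in untreated and 1270 and 1338 FPKM in LPS-treated wild-type liver, and at 1885 and 1390 FPKM and 1705 and 1793 FPKM in transgenic liver. Fgb was measured at 2625 and 2701 FPKM and 1669 and 1760 FPKM in wild type, and at 2384 and 1897 FPKM and 1952 and 2307 FPKM in transgenic liver. Fgg was measured at 1974 and 2104 FPKM and 1206 and 1315 FPKM in wild type, and at 1884 and 1527 FPKM and 1428 and 1716 FPKM in transgenic liver. In wild type the LPS libraries lay below the untreated ones for all 3 chains, and in transgenic mice the groups overlapped for all 3.

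Fgg fell by 0.69 on the log2 scale in wild type (SE 0.20, adjusted p = 0.0478), while Fga differed by -0.53 (SE 0.21, adjusted p = 0.12) and Fgb by -0.64 (SE 0.21, adjusted p = 0.0658). The Fgg call was close to the threshold and was lost in 10 of 17 alternatives, with adjusted p values from 0.0236 to 0.273 over all 17. It was lost, among others, with a replicate block and on leaving out any 1 library other than those of transgenic mice with LPS. The Fgg difference itself stayed between -0.76 and -0.63 over the libraries left out. Fgb passed as lower in wild type in the fit of the compared groups alone and without either transgenic library with LPS. In transgenic mice the differences were 0.11 for Fga, -0.00 for Fgb and -0.12 for Fgg. The interaction, the LPS difference in transgenic minus that in wild-type mice, was 0.64 (SE 0.30, adjusted p = 0.516) for Fga, 0.63 (SE 0.29, adjusted p = 0.503) for Fgb and 0.58 (SE 0.29, adjusted p = 0.528) for Fgg. A difference between the genotypes in the fibrinogen response was thus not called. With quantile normalization the fibrinogen median was -0.23 in wild type and 0.01 in transgenic mice. As a share of all FPKM, fibrinogen was 1.14% and 1.21% in untreated wild type, 0.882% and 0.957% in wild type with LPS, 1.17% and 0.961% in untreated transgenic and 1.25% and 1.27% in transgenic liver with LPS.

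Over the 8 libraries Fgg over Fgb was 0.723 to 0.805, and Fga over Fgb ranged more widely, from 0.648 to 0.873. Of 10 hepatocyte markers 9 had lower fitted levels with LPS in wild type (median difference -0.54), where 2 fell and 1 rose. In transgenic mice 6 of these markers were lower and 4 higher (median -0.19), where 1 fell and 2 rose. Their summed level was 22367 to 29415 FPKM in untreated and 22569 to 23144 FPKM in LPS-treated wild type, and 18213 to 22347 FPKM and 19336 to 22157 FPKM in transgenic liver.

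**Figure D5:**
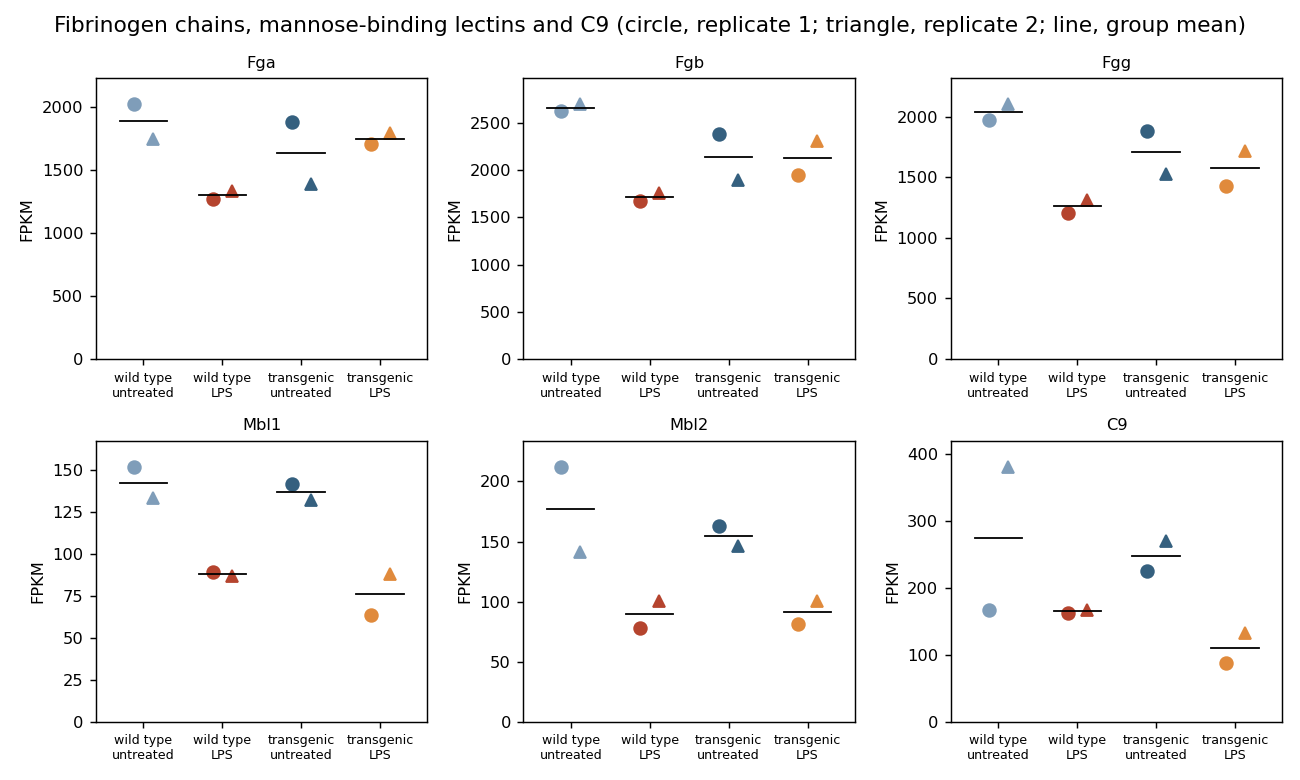
FPKM (y axes, from 0) of the fibrinogen chains Fga, Fgb and Fgg, the mannose-binding lectins Mbl1 and Mbl2 and the terminal component C9 by group, with circles for replicate 1, triangles for replicate 2 and a line at the group mean. In wild type Fgb was 2625 and 2701 FPKM without treatment and 1669 and 1760 FPKM with LPS, whereas in transgenic liver the groups overlap at 1897 to 2384 FPKM.

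The 14 clotting, contact, anticoagulant and fibrinolytic genes of hepatocytes had a median difference of -0.18 in wild type and -0.24 in transgenic mice, and of 0.02 and 0.03 with quantile normalization. In wild type 0 of them were called by limma, with 3 (F7, F9 and F13b) at an unadjusted p under 0.05, and in transgenic mice 1 rose and 1 fell. The called share was thus 0% and 14.3%. Over all tested features it was 16.2% higher and 5.41% lower in wild type, and 16.0% and 10.5% in transgenic mice. Of the zymogens and cofactors, F2, which encodes prothrombin, was the most abundant at 607 to 1010.2 FPKM over the 8 libraries, and differed by -0.12 and -0.25. F9, the haemophilia B factor, was measured at 117 and 211 FPKM and 85.8 and 88.4 FPKM in wild type, a difference of -0.84 (SE 0.28, adjusted p = 0.0705), and differed by -0.31 in transgenic mice. F9 passed as lower in wild type without replicate 1 of untreated wild type, without both untreated libraries numbered 1 and with a replicate block. F7, the partner of tissue factor, was measured at 70.1 and 54.6 FPKM and 43.4 and 47.8 FPKM in wild type and at 55.0 and 50.7 FPKM and 33.2 and 40.0 FPKM in transgenic liver, with no overlap, and differed by -0.43 (adjusted p = 0.124) and -0.52 (adjusted p = 0.0652). F13b, the carrier subunit of the fibrin crosslinking enzyme, differed by -0.53 and -0.45, F10 by -0.04 and -0.04, and F5, which shares its row with the neighbouring gene Selp, by -0.25 and -0.04. None of these were called.

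In the contact system, Klkb1, which encodes plasma prekallikrein (chromosome 8, 45266689 to 45294859), had the largest fall. It was measured at 72.0 and 77.2 FPKM in untreated and 52.2 and 49.96 FPKM in LPS-treated wild-type liver, and at 65.9 and 81.0 FPKM and 17.8 and 47.4 FPKM in transgenic liver. Replicate 1 of transgenic with LPS was far below every other library. Klkb1 fell by 1.30 on the log2 scale in transgenic mice (SE 0.38, adjusted p = 0.0419), and the difference ranged from -1.98 to -0.61 when 1 library was left out. The call was lost in 11 of 17 alternatives, among them on leaving out any 1 library other than replicate 2 of transgenic with LPS (adjusted p up to 0.186). Its neighbour F11 showed the same low library, at 8.87 FPKM against 18.3 to 25.9 FPKM elsewhere, and differed by -0.67 (adjusted p = 0.159) in transgenic and 0.01 in wild-type mice. That library also had the lowest summed FPKM (406668). It was the lowest of all libraries for genes on other chromosomes too, among them Mbl1, Masp2, C8g, C9 and C4bp (63.7, 94.0, 98.7, 88.5 and 143 FPKM). Not all genes followed, as Pros1 was highest there (80.8 FPKM). The part of this library in the transgenic falls was not tested beyond leaving it out. F12, at 258 to 396 FPKM, differed by -0.06 and -0.18, and Kng1, the kininogen gene, at 794 to 1127 FPKM, by -0.04 and 0.11.

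Among the inhibitors of clotting, Pros1, which encodes protein S, a cofactor of activated protein C, was the member that rose in transgenic mice. It was measured at 25.1 and 31.7 FPKM in untreated and 80.8 and 48.9 FPKM in LPS-treated transgenic liver, and at 33.3 and 57.6 FPKM and 46.5 and 38.0 FPKM in wild type, where the groups overlapped. The rise was 1.13 (SE 0.32, adjusted p = 0.0364) and the wild-type difference was -0.06. The call was lost in 7 of 17 alternatives, among them on leaving out either wild-type library with LPS, either untreated transgenic library or replicate 1 of transgenic with LPS (adjusted p up to 0.189), and the difference ranged from 0.77 to 1.49 over the libraries left out. Proc, the protein C gene, differed by -0.28 and -0.57, Plg, which encodes plasminogen, by -0.36 and -0.24, and Cpb2, the fibrinolysis inhibitor carboxypeptidase, by 0.14 and 0.55, with no calls.

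Tissue factor and thrombomodulin are membrane proteins that start clotting and turn thrombin to protein C activation. F3, the tissue factor gene (chromosome 3, 121723537 to 121735048), was low at 2.25 and 2.54 FPKM in untreated and 2.34 and 2.27 FPKM in LPS-treated wild-type liver. In transgenic liver it was measured at 2.74 and 3.24 FPKM without treatment and 1.12 and 1.30 FPKM with LPS. It fell by 0.85 on the log2 scale in transgenic mice (SE 0.13, adjusted p = 0.00374), a call kept in all 16 alternatives that tested it, and differed by -0.04 in wild type (adjusted p = 0.866). The interaction of -0.81 (SE 0.19, adjusted p = 0.361) was not called, so the genotypes were not shown to differ.

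Thbd, the thrombomodulin gene, was measured at 13.7 and 5.00 FPKM and 3.65 and 3.39 FPKM in wild type, and at 5.29 and 3.81 FPKM and 10.98 and 5.23 FPKM in transgenic liver. Its differences of -1.06 (SE 0.44, adjusted p = 0.129) and 0.65 (SE 0.44, adjusted p = 0.309) were not called, nor was the interaction of 1.71 (SE 0.62, adjusted p = 0.437). In wild type Thbd passed as lower with a replicate block and without replicate 2 of untreated wild type. The high values were those of untreated wild-type replicate 1 and LPS-treated transgenic replicate 1.

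Between the genotypes 0 of the 43 features were called by limma in any contrast. Of all tested features 0.0611% were called in untreated mice, 0% with LPS, 0.140% averaged over treatments and 0.00872% for the interaction. In untreated mice 0 of 43 had an unadjusted p under 0.05, beside 5.5% of all tested features. The 3 features with the smallest p there were Pros1 (-0.62, adjusted p = 0.985), Thbd (-0.77, adjusted p = 0.997) and F3 (0.23, adjusted p = 0.998). With LPS 6 had an unadjusted p under 0.05 (14%, beside 12.2% of all tested features). They were F3 (-0.58, adjusted p = 0.287), C8g (-0.68, adjusted p = 0.321), C5ar1 (0.50, adjusted p = 0.356), C4bp, F11 and C3ar1. Averaged over treatments 3 were under 0.05 unadjusted (6.98%, beside 6.49% of all tested features), C5ar1 (0.38, adjusted p = 0.598), C3ar1 (0.28) and C8g (-0.38). For the interaction 3 were under 0.05 unadjusted (6.98%, beside 10.4% of all tested features), F3, Thbd and Pros1 (1.19, adjusted p = 0.444). These shares were close to or below those of all tested features. Without replicate 2 of transgenic with LPS, which leaves the low library replicate 1 alone in its group, Klkb1, F11 and C4bp passed as lower in transgenic mice with LPS, and Klkb1 passed in the average and the interaction. The genotype comparisons share libraries with the LPS comparisons and are not independent of them.

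Other genes of both systems were counted for context. Of 22 further complement genes tested, 7 rose and 0 fell in wild type and 5 rose and 3 fell in transgenic mice, by limma, with 3 lower in wild type at an unadjusted p under 0.05. The rises were led by Itgb2 and Itgam, the chains of complement receptor CR3 of phagocytes, at 3.85 and 3.01 in wild type and 3.51 and 3.29 in transgenic mice, followed by Vsig4, the complement receptor of Kupffer cells, at 1.46 and 1.53. Colec11, a lectin that starts the lectin pathway, rose by 1.05 and 0.93, and Cd93, a membrane protein first described as a C1q receptor, by 1.01 and 1.39. The further complement genes that fell in transgenic mice were Susd4 (-1.22), C1rl (-0.94) and the shared row of Cd59a and Cd59b (-0.72). Of 34 further coagulation and fibrinolysis genes tested, 9 rose and 1 fell in wild type and 10 rose and 4 fell in transgenic mice. The called share was 29.4% and 41.2%, and for the further complement genes it was 31.8% and 36.4%. Over all tested features 16.2% were higher and 5.41% lower in wild type, and 16.0% and 10.5% in transgenic mice. Procr, the endothelial protein C receptor, rose by 2.204 and 2.04, Anxa2, a plasminogen receptor subunit, by 2.15 and 2.08, F13a1, the catalytic subunit of factor XIII, by 1.67 and 1.98, and Plau, the urokinase gene, by 1.69 and 1.11. Those that fell were S100a10 (-1.16), Ggcx (-1.19), Tfpi2 (-1.08) and Serpinf2 (-0.60) in transgenic mice and Mcfd2 (-0.64) in wild type. A2m, a protease inhibitor, rose by 2.53 in transgenic mice and differed by 1.38 in wild type (adjusted p = 0.2). Beside these, all 5 tested of 6 platelet markers rose in each genotype, led by Pf4 and Ppbp, from a sum of 2.09 to 4.69 FPKM without treatment to 24.4 to 34.6 FPKM with LPS. Of 6 stellate cell markers 4 rose in each genotype, among them Col3a1 but not Dcn, the most abundant, from a sum of 138 to 170 FPKM to 240 to 324 FPKM. The part of these cells in the coagulation values was not tested. The A2m values of transgenic liver with LPS were 1.37 and 14.1 FPKM. In wild type the further complement and coagulation genes had median differences of 0.07 and 0.15, and in transgenic mice of -0.01 and 0.04.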

How the data were processed

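RNA from frozen, pulverised liver of 8 mice was sequenced after a stranded Illumina mRNA library preparation, per the labels' protocols. The values used are FPKM as deposited by the authors, made with TopHat2 2.1.0, Bowtie2 2.2.6, Cufflinks and Cuffdiff 2.2.1 on mm10, per the submitters' processing notes. Tool order, settings and annotation were not given in the sources used here. Read depth is unknown, so no counting intervals are given, and the precision is limited by 2 libraries a group.

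The table held 24545 rows, of which 6197 were 0 in every library and 27 carry names turned into dates. Rows with identical values were merged, so that 4 of the 43 features, and some of the markers, stand for 2 names each, and of rows with a repeated name the highest was kept. Values of log2(FPKM + 1) were fitted in limma 3.58.1 (R 4.3.3) with 4 group means and trended moderation, for features that reached 1 FPKM in 2 or more of the libraries. The residual degrees of freedom were 4, with a median prior of 3.59. P-values were adjusted by Benjamini-Hochberg over all 11463 tested features within each of 6 contrasts, with a threshold of 0.05.

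The genes, their roles and the lists of other pathway genes and of cell type markers (macrophage, hepatocyte, endothelial, neutrophil, stellate, platelet, fat and pancreas) were chosen with earlier results of these data known. Every gene of the set is described. Values per library are given for those called and for the largest change in each role. Where none passed, the 3 with the smallest p are named. Of the other pathway genes up to 4 a list and LPS comparison are named, and of the markers the 2 with the highest mean. Further genes named beyond that rule were chosen after their values were seen.

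Alternatives were another pseudocount (0.1), no filter or one of 5 FPKM, quantile normalization, upper quartile scaling, robust moderation, a replicate block, fits of the compared groups alone, leaving out each library and, chosen after seeing the data, leaving out both untreated libraries numbered 1. Positions are from GENCODE for GRCm38 (mm10). Promoters are from RefSeq on GRCm38.p6, where 34 of the 44 names had an entry.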

Additional observations from a re-analysis of the deposited data

How the results depend on the processing

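Of the calls with LPS, 6 of 10 in wild type and 8 of 13 in transgenic mice held in all alternatives that tested them, and none changed direction. The genes that rose held best, at 6 to 7 in wild type and 7 to 8 in transgenic mice when 1 library was left out. With the 5 FPKM filter, which leaves C3ar1, C5ar1 and F3 untested, 5 and 6 rose. Calls of genes that fell were lost more often. In wild type 3 fell (Mbl1, Mbl2 and Fgg), against 0 with quantile normalization and 0 to 5 when 1 library was left out. Omitting either LPS-treated transgenic library gave these 3 with Fgb and Klkb1. Omitting untreated wild-type replicate 1 gave 5 others (Hc, C6, C8b, C9 and F9), omitting replicate 2 gave 2 (Mbl2 and Thbd), and each other library 0. Without both untreated libraries numbered 1 the 3 that fell and C5ar1 lost their call in wild type, and C6, C9 and F9 passed. Where an untreated transgenic library was omitted the wild-type differences did not change, only the spread and its degrees of freedom. In transgenic mice 5 fell, against 3 with quantile normalization, 3 without both untreated libraries numbered 1, and 1 to 11 when 1 library was left out, with 1 without either untreated transgenic library and 11 without replicate 2 of transgenic with LPS. Without that library, 3 were lower between genotypes with LPS (0 to 3 over the libraries left out), and 1 in the genotype average and 1 in the interaction (0 to 1 each). A lone library left in a group is assumed to vary like the others. For the other changes the cause was not tested. Whether the replicate numbers pair the mice is unknown from the labels: same-numbered deviations correlated at 0.0434 to 0.459 between groups, with the highest value between the untreated groups. With a replicate block 7 rose and 4 fell in wild type and 8 and 6 in transgenic mice: Fgg lost its call and F9 and Thbd passed in wild type, and C9 passed in transgenic mice. Over all tested features 1861 rose and 620 fell in wild type and 1834 and 1200 in transgenic mice. The 5 FPKM filter gave 886 and 493, and 888 and 947. Quantile normalization gave 1459 and 994, and 1510 and 1296. Leaving out 1 library gave 1157 to 2232 and 62 to 1221, and 1009 to 2037 and 224 to 1606. Leaving out both untreated libraries numbered 1 gave 1349 and 320 in transgenic mice. Fits of only the compared groups were not run for the genotype average and the interaction, which use all groups. At levels near 1 FPKM, as for C3ar1, C5ar1 and F3, the pseudocount compresses the differences.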
